A study of Mus musculus with 6 samples.

Results

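Ligands and related surface molecules through which a dendritic cell delivers a second signal to a T cell were followed here as a set of 10 genes, out of 56748 Ensembl gene IDs counted in each library. They were chosen by name, as B7 family members and other costimulatory or inhibitory surface molecules, with no measured value in the rule but with earlier results of these data known: Cd80, Cd86, Icosl, Cd83, Cd274, Pdcd1lg2, Cd276, Vsir, Havcr2 and Lgals9. RNA-seq had been carried out on bone marrow-derived dendritic cells (BMDCs) to ask how loss of Nfkb2 alters their basal gene expression. There were 6 libraries of polyadenylated RNA, 3 from wild-type (WT) and 3 from global Nfkb2-/- mice, described in the study as independent biological replicates. Both groups were grown in the same way, for 5 days with GM-CSF at 20 ng/mL and then for 4 days with GM-CSF at 20 ng/mL plus IL-4 at 10 ng/mL, and were taken at 0 h without any stimulus. Per the study's methods, the cells used were those not attached to the plate on day 9. All levels below are therefore those of cells that received GM-CSF and IL-4 but no microbial signal. The knockout was carried by every cell of the mouse and not restricted to dendritic cells, and the sample labels state neither the age nor the strain of the animals. The WT libraries held 43126299, 31622131 and 33211096 counts in replicates 1 to 3, and the Nfkb2-/- libraries held 29863927, 31622146 and 55623068, in the order kept throughout.

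A T cell that recognises antigen on a dendritic cell also reads a second set of contacts. CD80 and CD86 engage CD28 to promote activation or CTLA-4 to restrain it, ICOS ligand engages ICOS, and the PD-1 ligands PD-L1 (encoded by Cd274) and PD-L2 (encoded by Pdcd1lg2) restrain the T cell. Dendritic cells are known to raise several of these molecules as they mature, and NF-κB factors are among the regulators of that step. Nfkb2 encodes p100, the precursor of p52, which partners RelB in the noncanonical pathway. Nfkb2 (GRCm38 chr19:46304320-46312385, plus strand) measured 215, 154 and 355 CPM in WT and 44.8, 32.3 and 32.6 CPM in Nfkb2-/- libraries, so that its levels followed the labels in all 6 libraries. CPM here means counts per 1000000 counts of the library after scaling with edgeR's TMM factors.

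Of the libraries, 2 stood apart. WT replicate 3 had a summed level of 13 macrophage markers of 459.8 CPM, against 4603 and 4726 CPM in WT replicates 1 and 2 and 1963, 2843 and 2802 CPM in Nfkb2-/-. In the same library the summed level of 12 markers of mature dendritic cells came to 19290 CPM, against 13400 and 9741 CPM in the other WT libraries and 11530, 11130 and 10640 CPM in Nfkb2-/-. Nfkb2-/- replicate 1 had at least 1 count on 47952 gene IDs, whereas the other libraries had 27692 to 33841. WT replicate 3 was the highest or the lowest of the 3 WT libraries for all 10 ligand genes, the highest for 6 and the lowest for 4. This library took either end for 76.9% of all genes tested, and for 82.6% of those averaging at least 5 CPM, as 9 of the 10 do. Nfkb2-/- replicate 1 took either end of its own group for 7 of the 10. It did so for 86.3% of all genes tested and 86.9% of those averaging at least 5 CPM. Fold changes of the 10 genes are therefore also given below without these libraries where that altered the outcome of the test. For every other gene said below to have changed, the call was lost without Nfkb2-/- replicate 1, and likewise without WT replicate 1, Nfkb2-/- replicate 2 or Nfkb2-/- replicate 3 and with the replicate number as a block, since no gene in all passed the test in these fits. It was made when WT replicate 3 and Nfkb2-/- replicate 1 were left out together.

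The dendritic cell label was checked against 9 marker genes, all of which were detected. Cd74, the invariant chain of MHC class II and the most abundant of them by mean CPM, measured 2453, 1870 and 3691 CPM in WT and 2905, 2748 and 3036 CPM in Nfkb2-/- libraries. H2-Aa, Irf4 and H2-Ab1, which encode an MHC class II chain, a transcription factor of IL-4-dependent dendritic cells and the class II beta chain, had log2 fold changes of -0.25, 0.14 and 0.13, none of which passed the test. Itgax, encoding CD11c, measured 160, 277 and 123 CPM in WT and 745, 769 and 716 CPM in Nfkb2-/- libraries. It was the single dendritic cell marker that changed, with a log2 fold change of 1.99 (adjusted p = 0.0414, edgeR), and of 1.98 without Nfkb2-/- replicate 1 (adjusted p = 0.0900). Over the 9 markers 5 log2 fold changes were positive and 4 negative, and 2 were higher and 1 lower in Nfkb2-/- without overlap. The 1 lower was Zbtb46, a transcription factor of classical dendritic cells, with 168, 151 and 218 CPM in WT and 115, 136 and 119 CPM in Nfkb2-/- libraries (log2 fold change -0.54, adjusted p = 0.192, edgeR).

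All 10 ligand genes passed the filter of at least 50 counts over the 6 libraries, and 21849 genes in all were tested. A gene was taken as changed when its Benjamini-Hochberg adjusted p in edgeR's quasi-likelihood test was under 0.05 and its fold change over 1.2. By this rule none of the 10 changed, while 1.14% of all genes did, 0.453% upward and 0.682% downward. An unadjusted p under 0.05 was reached by 3 of the 10, Cd86, Cd83 and Lgals9, and by 17.1% of all genes. For 4 of the 10 the WT and Nfkb2-/- libraries did not overlap, against 24.7% of all genes. Cd86 and Lgals9 were higher in Nfkb2-/- without overlap, a pattern seen in 12.7% of all genes, and Cd83 and Cd274 were lower without overlap, a pattern seen in 12% of all genes. The median log2 fold change was -0.01 over the 10 genes and 0.08 over all genes tested. DESeq2 called Lgals9 and Cd83, where it called 10.7% of the genes to which it gave an adjusted p. With limma voom none of the 10 was called and 2.23% of all genes were, and with an adjusted p under 0.1 in edgeR none was called against 3.7% of all genes.

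**Figure D1:**
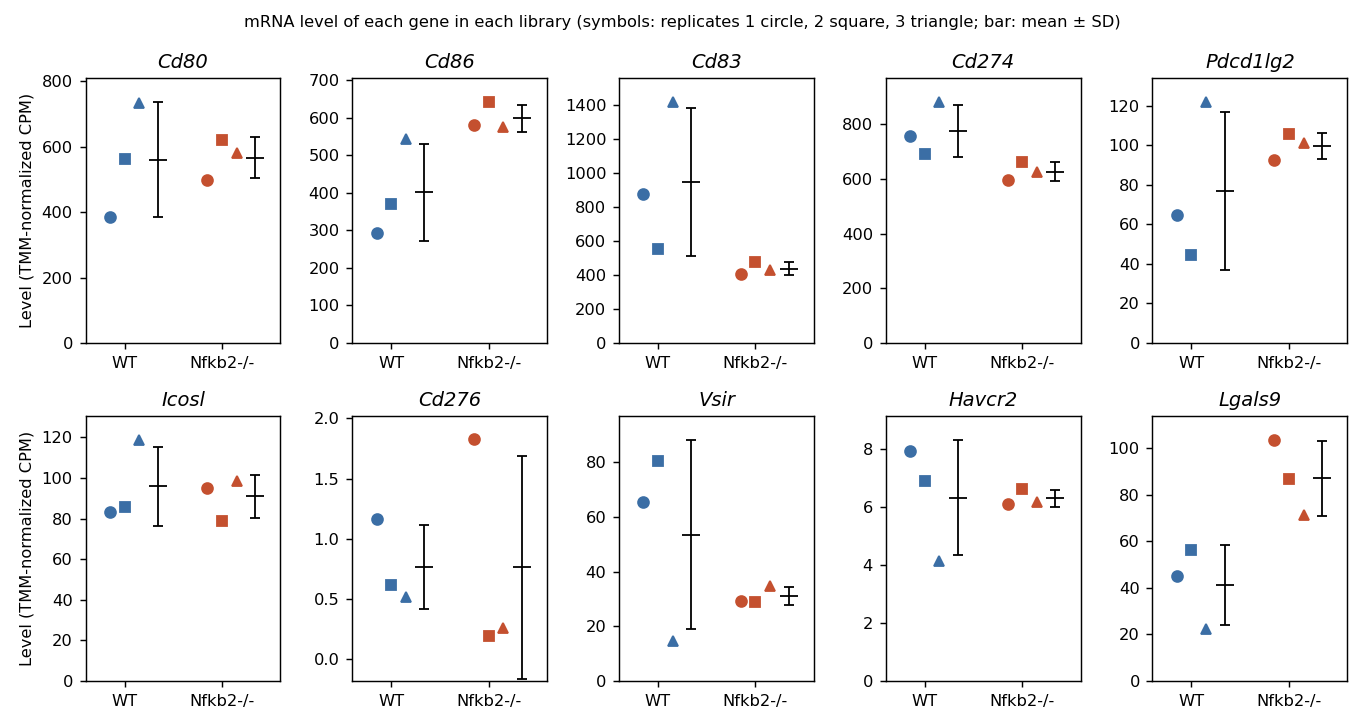
TMM-normalized CPM of each of the 10 genes (vertical axes, starting at 0 or below) in the 3 WT libraries (blue) and the 3 Nfkb2-/- libraries (red), with the mean and SD of each genotype in black. Cd86 and Lgals9 lie higher and Cd83 and Cd274 lower in every Nfkb2-/- library than in every WT library, and the triangle of WT replicate 3 is at the top or the bottom of its group in all 10 panels.

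Levels of different genes were compared as CPM per kb of annotated exon. In WT BMDCs the order of mean CPM per kb was Cd83 (369), Cd274 (214), Cd80 (151), Cd86 (109.6), Pdcd1lg2 (39.2), Icosl (20.7), Lgals9 (19.3), Vsir (10.7), Havcr2 (2.32) and Cd276 (0.209). In Nfkb2-/- BMDCs it was Cd274 (173), Cd83 (170.4), Cd86 (163), Cd80 (153), Pdcd1lg2 (50.8), Lgals9 (40.7), Icosl (19.7), Vsir (6.17), Havcr2 (2.31) and Cd276 (0.209). The B7 pair, Cd83 and PD-L1 thus formed the upper tier in both genotypes, and within that tier each neighbour in the order overlapped the next in CPM per kb. The lowest library of Cd86 in WT, at 79.7 CPM per kb, was still above the highest of Pdcd1lg2, at 62.0 CPM per kb. Lgals9 and Icosl overlapped in WT, whereas in Nfkb2-/- BMDCs Lgals9 ranged from 33.3 to 48.3 CPM per kb and Icosl from 17.1 to 21.3 CPM per kb. Havcr2 and Cd276 came last in both genotypes, each separated from the gene above it.

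Cd80 (ENSMUSG00000075122; GRCm38 chr16:38455561-38496335, plus strand) encodes B7-1, the ligand of CD28 and CTLA-4 with the higher affinity for both. It measured 384, 564 and 734 CPM in WT and 499, 622 and 580.4 CPM in Nfkb2-/- libraries. The Nfkb2-/- values lay inside the WT range. With 561 ± 175 CPM in WT and 567 ± 62.5 CPM in Nfkb2-/- (SD, n = 3 each), the log2 fold change was 0.02 (SE, its standard error, 0.25; adjusted p = 0.981, edgeR), and its 95% interval of -0.57 to 0.60 still allows a difference of either sign.

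Cd86 (ENSMUSG00000022901; GRCm38 chr16:36603869-36666081, minus strand) encodes B7-2, which binds the same receptors and lies on the same chromosome. It measured 292, 369 and 543 CPM in WT and 579.8, 641 and 575 CPM in Nfkb2-/- libraries. All Nfkb2-/- libraries exceeded all WT libraries, although WT replicate 3 came within a narrow distance of the lowest of them. It averaged 401 ± 129 CPM in WT and 598 ± 36.5 CPM in Nfkb2-/- (SD, n = 3 each), a fold of 1.49. The log2 fold change of 0.58 (SE 0.24, 95% interval 0.01 to 1.14) had an unadjusted p of 0.0470 in edgeR and did not pass after adjustment (adjusted p = 0.284). Of 15 alternatives 1 passed the test, the fit without WT replicate 3 and Nfkb2-/- replicate 1 (0.86, adjusted p = 0.0401, edgeR), which was chosen after seeing the data. Leaving out WT replicate 3 alone gave 0.86 (adjusted p = 0.0758), Nfkb2-/- replicate 1 alone 0.59 (adjusted p = 0.277), and WT replicate 1 alone 0.39 (adjusted p = 0.597).

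Because CD80 and CD86 share their receptors, the ratio of their mRNAs was taken within each library, where it does not depend on the scaling between libraries. On counts per kb of exon, Cd80 stood at 1.30, 1.51 and 1.34 times Cd86 in WT and at 0.851, 0.960 and 0.998 times Cd86 in Nfkb2-/- libraries. In WT BMDCs Cd80 exceeded Cd86 in every library, and in Nfkb2-/- BMDCs it was below Cd86 in replicates 1 and 2 and level with it in replicate 3, where without the division by exon length Cd80 was slightly the higher (31023 against 30737 counts). The mean log2 ratio was 0.46 ± 0.11 (SD, n = 3) in WT and -0.10 ± 0.12 (SD, n = 3) in Nfkb2-/-, a difference of -0.56 with a two-sided exact permutation p of 0.1, the smallest that 3 libraries against 3 can give. WT replicate 3, the highest WT library for either gene, lay between the other WT libraries in this ratio. Leaving out each library in turn gave differences from -0.61 to -0.50.

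**Figure D2:**
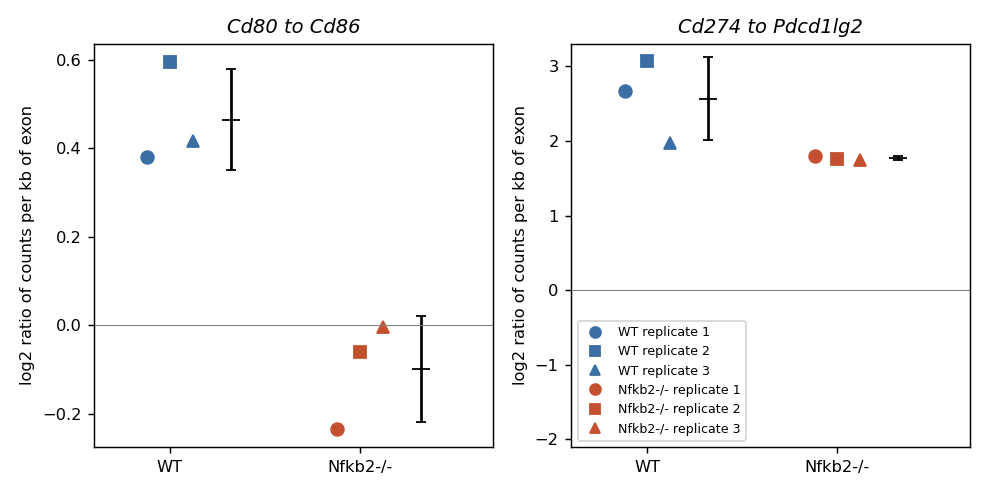
Ratio of Cd80 to Cd86 (left) and of Cd274 to Pdcd1lg2 (right) within each library, as log2 of counts per kb of exon (vertical axes on different scales), for 3 WT and 3 Nfkb2-/- libraries with the mean and SD in black. Both ratios are lower in every Nfkb2-/- library than in every WT library, and the Nfkb2-/- libraries are close together in the ratio of the PD-1 ligands, between 1.75 and 1.80.

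Icosl (ENSMUSG00000000732; GRCm38 chr10:78069302-78083913, plus strand) encodes the ligand of ICOS, a receptor of activated and follicular helper T cells. The WT libraries had 83.1, 85.8 and 118 CPM and the Nfkb2-/- libraries 95.2, 78.8 and 98.6 CPM. The genotypes overlapped, at 95.8 ± 19.7 CPM in WT and 90.9 ± 10.6 CPM in Nfkb2-/- (SD, n = 3 each). A log2 fold change of -0.08 (95% interval -0.52 to 0.36; adjusted p = 0.869, edgeR) was obtained, and it turned positive, at 0.11, when WT replicate 3 was left out and at 0.03 when counts were scaled to total counts alone.

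Cd83 (ENSMUSG00000015396; GRCm38 chr13:43784775-43803132, plus strand) encodes a surface molecule used as a marker of mature dendritic cells, known to stabilise MHC class II and CD86 at the cell surface. It measured 877, 555 and 1417 CPM in WT and 408, 478 and 429 CPM in Nfkb2-/- libraries. The genotypes did not overlap, and the WT values spread widely while the Nfkb2-/- values stayed close together. The averages were 949.6 ± 436 CPM in WT and 438 ± 35.8 CPM in Nfkb2-/- (SD, n = 3 each), a fold of 0.462. With all libraries this was the most negative log2 fold change of the 10 genes, -1.12 (SE 0.33, 95% interval -1.88 to -0.35). The unadjusted p in edgeR was 0.0106 and the adjusted p 0.150. The test was passed without WT replicate 2, the lowest WT library (log2 fold change -1.39, adjusted p = 0.0295, edgeR), and with DESeq2 on all libraries (-1.14, adjusted p = 0.0152). Without WT replicate 3 and Nfkb2-/- replicate 1 it was -0.68 (adjusted p = 0.131, edgeR). Without WT replicate 3 alone Cd83 had a log2 fold change of -0.71 and Vsir 1 of -1.23, so that Vsir was then the more negative.

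Markers of maturation are given beside Cd83. Of the 12 mature dendritic cell markers, 10 had a negative log2 fold change, with a median over the list of -0.85 against 0.08 over all genes, and 5 were lower in every Nfkb2-/- library, as 12% of all genes were. Ccr7, the chemokine receptor that guides dendritic cells to lymph nodes, and Fscn1, an actin-bundling protein of mature dendritic cells, had log2 fold changes of -0.97 (adjusted p = 0.235, edgeR) and -1.49 (adjusted p = 0.0902, edgeR). Ccl22, the most abundant of the list by mean CPM, had a log2 fold change of -0.50 (adjusted p = 0.404, edgeR). The single member of the list that changed went the other way. Ccl17, a chemokine for CCR4-bearing T cells, measured 161, 361 and 432 CPM in WT and 2385, 2472 and 2357 CPM in Nfkb2-/- libraries (log2 fold change 2.92, adjusted p = 0.0307, edgeR), with the same log2 fold change of 2.92 without Nfkb2-/- replicate 1 (adjusted p = 0.0876). Without Ccl17 the summed level of the list was 13240, 9381 and 18860 CPM in WT and 9149, 8661 and 8282 CPM in Nfkb2-/- libraries. The overlap of the full sum with WT replicate 2 thus rested on this gene, which was left out because it went against the rest. The gap between WT replicate 2 and Nfkb2-/- replicate 1 was small, and Ccl22 alone gave 5890 CPM of the WT replicate 2 sum. The part of maturation state in the values of Cd83 was not tested, and in bulk RNA fewer cells of a type and less RNA per cell cannot be told apart.

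**Figure D3:**
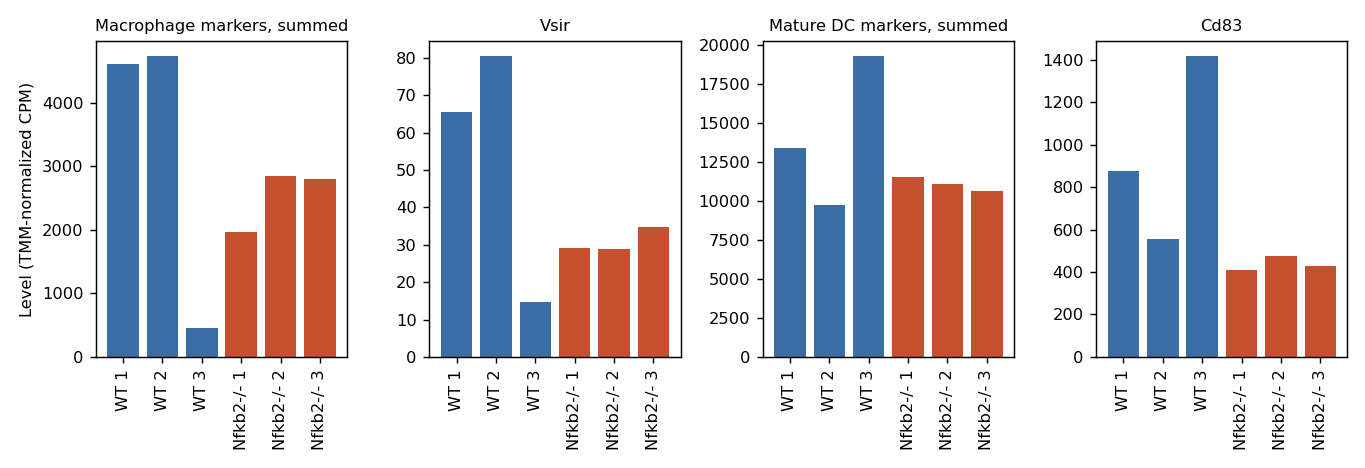
TMM-normalized CPM in each of the 6 libraries (bars, axes from 0; blue WT, red Nfkb2-/-) of 13 macrophage markers summed, Vsir, 12 mature dendritic cell markers summed, and Cd83. WT replicate 3 has the lowest macrophage sum (459.8 CPM) and the lowest Vsir (14.7 CPM), and the highest mature dendritic cell sum (19290 CPM) and the highest Cd83 (1417 CPM).

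Cd274 (ENSMUSG00000016496; GRCm38 chr19:29367455-29388095, plus strand) encodes PD-L1, the broadly expressed ligand of PD-1, which also binds CD80. It had 756, 691 and 880.3 CPM in WT and 595, 662 and 625 CPM in Nfkb2-/- libraries. All Nfkb2-/- values were below all WT values, by a small margin between WT replicate 2 and Nfkb2-/- replicate 2. With means of 776 ± 96.1 CPM in WT and 627 ± 33.8 CPM in Nfkb2-/- (SD, n = 3 each), the fold was 0.809 and the log2 fold change -0.31 (SE 0.16, 95% interval -0.69 to 0.08; adjusted p = 0.401, edgeR). The direction was the same under all 15 alternatives and the threshold was passed under none. Of the 3622 exon bases of Cd274, 511 are shared with the antisense gene AC119228.1 in GENCODE M21, and whether reads were counted by strand is not given in the sources used here, so that reads over these bases cannot be told apart.

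Pdcd1lg2 (ENSMUSG00000016498; GRCm38 chr19:29410919-29471161, plus strand) encodes PD-L2, the PD-1 ligand that is largely confined to dendritic cells and macrophages and is known to respond to IL-4. It measured 64.6, 44.5 and 122 CPM in WT and 92.7, 106 and 101 CPM in Nfkb2-/- libraries. WT replicate 3 was the highest of all libraries and the other WT libraries were the lowest, so the genotypes overlapped through that library alone. Averages of 76.9 ± 40.0 CPM in WT and 99.7 ± 6.52 CPM in Nfkb2-/- (SD, n = 3 each) corresponded to a log2 fold change of 0.37 (SE 0.34; adjusted p = 0.615, edgeR). The value was 0.87 when WT replicate 3 was left out and 0.10 when WT replicate 2 was, and neither passed the test. Cd274 and Pdcd1lg2 are neighbours on the chromosome that also carries Nfkb2, and both start 16.9 Mb from it, so that sequence linked to the targeted locus cannot be told apart from the knockout for these genes.

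The relation between the PD-1 ligands was also read within each library. Cd274 had 6.34, 8.40 and 3.92 times the counts per kb of Pdcd1lg2 in WT and 3.47, 3.40 and 3.35 times in Nfkb2-/- libraries. The Nfkb2-/- libraries gave nearly the same ratio, and all WT libraries were above it. The mean log2 ratio was 2.57 ± 0.56 (SD, n = 3) in WT and 1.77 ± 0.03 (SD, n = 3) in Nfkb2-/-, a difference of -0.80 with a two-sided exact permutation p of 0.1, the smallest possible. Leaving out each library in turn gave differences from -1.10 to -0.55, the first of them without WT replicate 3 and the second without WT replicate 2. The exact permutation p stayed at 0.1 without any of the WT libraries and was 0.2 without any of the Nfkb2-/- libraries.

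Promoter sequence is shown for Pdcd1lg2, since the deleted gene encodes a factor that binds κB sites in DNA and this window holds a match to their consensus. RefSeq windows of 300 bases around the start site, on GRCm38.p6, were at hand for 8 of the 10 genes, the exceptions being Cd86 and Cd83. The 250 bases before the start site of Pdcd1lg2, chr19:29410669-29410918 on the plus strand, overlap no annotated exon and read as follows, with the match to the κB consensus in capitals, 244 to 235 bases before the start site.
Pdcd1lg2 promoter: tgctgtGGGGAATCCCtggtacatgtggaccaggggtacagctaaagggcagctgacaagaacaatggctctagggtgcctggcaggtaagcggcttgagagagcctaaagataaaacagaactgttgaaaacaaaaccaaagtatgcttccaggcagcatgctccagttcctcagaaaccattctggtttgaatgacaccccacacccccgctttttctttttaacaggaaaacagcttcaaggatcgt
The κB consensus was searched on both strands and was present in 2 of the 8 windows, in Pdcd1lg2 and, as GGAGCTCCCC 111 to 102 bases before the start site, in Icosl, whereas 11.2% of 32851 RefSeq windows held it. The motif TTCNNNGAA, searched on both strands as well, was in none of the 8 windows and in 8.3% of all. Neither Pdcd1lg2 nor Icosl passed the test between genotypes. These matches describe letters in the windows and say nothing on binding.

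Vsir (ENSMUSG00000020101; GRCm38 chr10:60346851-60372684, plus strand) encodes VISTA, an inhibitory B7 homolog of myeloid cells. It measured 65.6, 80.4 and 14.7 CPM in WT and 29.1, 29.0 and 34.7 CPM in Nfkb2-/- libraries. WT replicates 1 and 2 were above all Nfkb2-/- libraries and WT replicate 3 was below all of them. With 53.5 ± 34.5 CPM in WT and 30.9 ± 3.28 CPM in Nfkb2-/- (SD, n = 3 each), the log2 fold change was -0.79 (SE 0.53; adjusted p = 0.497, edgeR). Without WT replicate 3, edgeR gave -1.23 with an adjusted p of 0.0398, and without WT replicate 3 and Nfkb2-/- replicate 1 it gave -1.21 with an adjusted p of 0.0297. Without WT replicate 2 it was -0.38 (adjusted p = 0.761) and without WT replicate 1 -0.62 (adjusted p = 0.740), so that the value depended on which WT libraries entered the fit.

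Macrophage markers stood beside Vsir in the same way. Lyz2, the most abundant of the 13 by mean CPM, measured 3436, 3407 and 267 CPM in WT and 1234, 2061 and 1867 CPM in Nfkb2-/- libraries. Csf1r, the receptor for M-CSF, measured 239, 250.1 and 37.2 CPM in WT and 115, 131 and 157 CPM in Nfkb2-/-, and Mrc1, the mannose receptor, 224, 262 and 36.0 CPM in WT and 108, 181 and 189 CPM in Nfkb2-/-. WT replicate 3 was thus the lowest of the 6 libraries for these markers, as it was for Vsir. C1qb, a complement component and the next most abundant, was also lowest in WT replicate 3, with 164, 215 and 22.8 CPM in WT. Apoe, encoding apolipoprotein E, went against this pattern, with 82.3, 56.5 and 3.68 CPM in WT and 2.25, 0.725 and 0.898 CPM in Nfkb2-/- libraries, lower in every Nfkb2-/- library (log2 fold change -5.21, adjusted p = 0.0770, edgeR). None of the 13 markers changed by the test used, 5 had a positive and 8 a negative log2 fold change, and none was at 0 in all libraries. The part of macrophage content in the Vsir values was not tested.

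Cd276 (ENSMUSG00000035914; GRCm38 chr9:58524298-58555437, minus strand) encodes B7-H3, a B7 homolog whose receptor is not settled. It was near the limit of detection, with 49, 20 and 15 counts in WT and 62, 6 and 14 counts in Nfkb2-/- libraries, or 1.16, 0.615 and 0.516 CPM and 1.83, 0.198 and 0.262 CPM. The highest and the lowest library both belonged to Nfkb2-/-. A log2 fold change of -0.01 with a 95% interval of -2.14 to 2.11 (adjusted p = 0.996, edgeR) allows a difference of several fold in either direction. It was -1.72 without Nfkb2-/- replicate 1, the highest library (adjusted p = 0.177, edgeR), and -1.94 without WT replicate 3 as well (adjusted p = 0.0982). For comparison, 3 counts correspond to between 0.0561 and 0.103 CPM in these libraries. Of its 3658 exon bases, 416 are shared with Gm10657 on the opposite strand.

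Havcr2 (ENSMUSG00000020399; GRCm38 chr11:46454935-46481255, plus strand) encodes TIM-3, an inhibitory receptor of exhausted T cells that dendritic cells also carry. It measured 7.95, 6.89 and 4.13 CPM in WT and 6.09, 6.63 and 6.17 CPM in Nfkb2-/- libraries. The Nfkb2-/- values lay inside the WT range, at 6.29 ± 0.289 CPM, with 6.32 ± 1.97 CPM in WT (SD, n = 3 each). The log2 fold change of -0.01 had a 95% interval of -0.62 to 0.61 and an adjusted p of 0.991 (edgeR), and its sign differed between alternatives.

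Lgals9 (ENSMUSG00000001123; GRCm38 chr11:78962974-78984946, minus strand) encodes galectin-9, a secreted lectin described as a TIM-3 ligand. It measured 45.0, 56.1 and 22.4 CPM in WT and 103, 86.7 and 71.1 CPM in Nfkb2-/- libraries. No WT library reached any Nfkb2-/- library, with WT replicate 3 again lowest. Averages of 41.2 ± 17.2 CPM in WT and 87.0 ± 16.04 CPM in Nfkb2-/- (SD, n = 3 each) gave a fold of 2.11. With all libraries this was the most positive log2 fold change of the 10 genes, 1.08 (SE 0.33, 95% interval 0.30 to 1.85). The unadjusted p in edgeR was 0.0129 and the adjusted p 0.163. Without WT replicate 3 the value for Lgals9 was 0.79, below those of Pdcd1lg2 (0.87) and Cd86 (0.86). DESeq2 on all libraries gave 1.06 for Lgals9 with an adjusted p of 0.0276. Over the 15 alternatives the value ranged from 0.63 to 1.37, always higher in Nfkb2-/-, and the adjusted p from 0.0180 to 0.404.

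**Figure D4:**
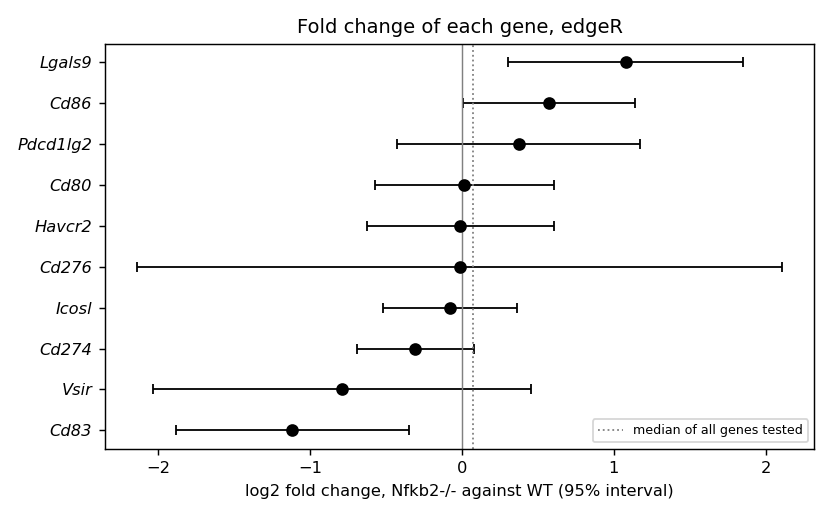
Log2 fold change of each of the 10 genes in Nfkb2-/- against WT BMDCs (horizontal axis; points) with its 95% interval (bars) from edgeR, the dotted line marking the median of all genes tested (0.08). The intervals of Lgals9, Cd86 and Cd83 do not include 0, before any adjustment over the 21849 genes, and that of Cd276 is the widest.

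Spread among replicates differed between the genotypes for these genes. The coefficient of variation was smaller in Nfkb2-/- than in WT for 9 of the 10, all but Cd276, with a median of 9.38% in Nfkb2-/- and 36.9% in WT. Over all genes tested the medians were 21.9% and 25.9%, and 50.3% of genes had the smaller value in Nfkb2-/-. Among the 10646 genes averaging at least 5 CPM, 60.6% did, with medians of 13% in Nfkb2-/- and 16.3% in WT. Vsir went from 64.4% in WT to 10.6% in Nfkb2-/-, Pdcd1lg2 from 52.0% to 6.54%, Cd83 from 45.9% to 8.17% and Lgals9 from 41.7% to 18.4%. Cd274 had the smallest coefficient of variation in WT, 12.4%. The wide WT values include WT replicate 3, which was at one end of its group for every one of the 10 genes. WT replicates 1 and 2 were close for Icosl (83.1 and 85.8 CPM, against 118 CPM in WT replicate 3). For Vsir they had 65.6 and 80.4 CPM, against 14.7 CPM. For Cd83 they lay apart as well (877 and 555 CPM, against 1417 CPM). No coefficient of variation was taken without WT replicate 3. The part of this library in the WT spread was therefore not tested.

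How alike the 10 genes were across libraries was measured as the root mean square difference between their mean-centred log2 CPM values over the 6 libraries, for the 9 genes averaging at least 5 CPM. The closest pairs were Cd274 with Icosl (0.201), Cd80 with Icosl (0.243) and Cd80 with Cd86 (0.297). Cd83 and Lgals9 were farthest apart (1.34), and the gene nearest to Vsir was Havcr2 (0.586). Pdcd1lg2 lay nearer to Cd86 (0.301) than to its neighbour on the chromosome, Cd274 (0.510).

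Among the other 10645 genes averaging at least 5 CPM, the same distance picked out the nearest profiles. Cd83 was most like Ly75 (0.0423), which encodes the antigen-uptake receptor DEC-205, then Snn (0.0507) and Nfkbib (0.0778), which encodes an inhibitor of NF-κB. Cd274 was most like Idnk (0.0271), Ddx17 (0.0321) and Ric8b (0.0342), and Cd86 was most like Pdcd4 (0.0537), Dpy30 (0.0852) and Mad2l1bp (0.0917). Vsir was most like Il6ra (0.0520), the interleukin-6 receptor alpha chain, then Igsf6 (0.135) and Cd300a (0.185), an inhibitory receptor of myeloid cells. Pdcd1lg2 was most like Gm17767 (0.108), Nr4a3 (0.134), an orphan nuclear receptor, and Map3k15 (0.148). Lgals9 was most like Lgals3bp (0.120), a galectin-3 binding protein, Cd6 (0.121) and Speg (0.124). Near to Cd80 were Atp5j2 (0.0687) and Eif3s6-ps2 (0.0703), to Icosl Smim8 (0.0503), Maea (0.0547) and Crispld2 (0.0592), and to Havcr2 Rab11fip5 (0.0469), Arhgap25 (0.0540) and Creg1 (0.0619). With 6 libraries many genes can lie this close, and the distances are a description.

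Other genes of the pathway were read from 4 lists of 54 genes, of which 48 were tested. Of these 1 rose and 2 fell, where 1.14% of all genes changed, and 16 had an unadjusted p under 0.05, where 17.1% of all genes did. Libraries of the genotypes did not overlap for 18 of the 48 (24.7% of all genes), higher in Nfkb2-/- for 12 (12.7% of all) and lower for 6 (12% of all). The median log2 fold change was 0.11, against 0.08 over all genes. The genes that changed were the TNF family ligand Tnfsf18, the SLAM family receptor Slamf1 and the HVEM-binding receptor Cd160.

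Tnfsf18, which encodes GITR ligand, measured 0.830, 0.585 and 1.45 CPM in WT and 3.90, 6.76 and 4.34 CPM in Nfkb2-/- libraries. All Nfkb2-/- libraries were above all WT libraries at this low level, and it rose with a log2 fold change of 2.39 (SE 0.41; adjusted p = 0.0489, edgeR). Slamf1, a self-binding costimulatory receptor, measured 139, 134 and 201 CPM in WT and 52.8, 57.4 and 41.5 CPM in Nfkb2-/- libraries, and fell by 1.65 on the log2 scale (SE 0.22; adjusted p = 0.0332, edgeR). Cd160 measured 21.7, 21.9 and 19.5 CPM in WT and 11.4, 9.0 and 7.78 CPM in Nfkb2-/- libraries, and fell by 1.16 on the log2 scale (SE 0.19; adjusted p = 0.0444, edgeR). The calls for Tnfsf18, Slamf1 and Cd160 were lost in 6, 5 and 6 of 15 alternatives, among them the fits without WT replicate 1 or without any of the Nfkb2-/- libraries, with edgeR's adjusted p up to 0.225, 0.166 and 0.217. Direction was the same in all 15 for each of them.

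**Figure D5:**
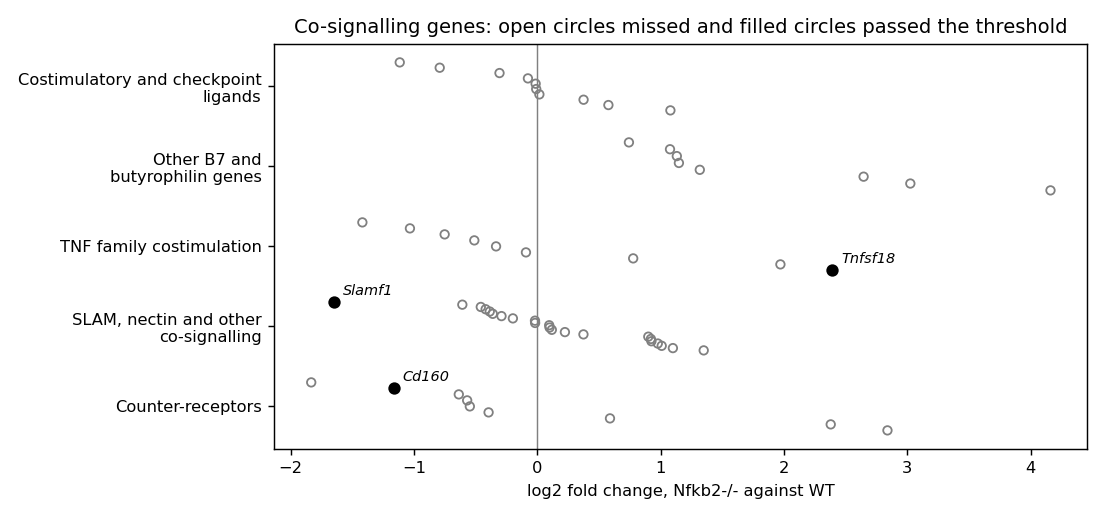
Log2 fold change in Nfkb2-/- against WT BMDCs (horizontal axis) of the 10 ligand genes and of the tested genes of 4 co-signalling lists, each point 1 gene, placed in order within its list; filled points changed by edgeR's test. Tnfsf18 (2.39) is the filled point to the right, Slamf1 (-1.65) and Cd160 (-1.16) are those to the left, and none of the 10 ligand genes is filled.

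The TNF family list held 9 genes, all tested, of which Tnfsf18 alone changed, with 3 positive and 6 negative log2 fold changes. Tnfsf4, encoding OX40 ligand and the most abundant of them by mean CPM, measured 139, 117 and 197 CPM in WT and 53.7, 90.4 and 77.2 CPM in Nfkb2-/- libraries, without overlap (log2 fold change -1.03, adjusted p = 0.115, edgeR). Tnfsf8, encoding CD30 ligand, was higher in every Nfkb2-/- library, with 15.2, 49.1 and 4.92 CPM in WT against 67.9, 100.5 and 103 CPM (1.97, adjusted p = 0.222). Cd40, the receptor through which T cells license dendritic cells, had 34.2, 22.7 and 49.8 CPM in WT and 21.7, 20.6 and 21.1 CPM in Nfkb2-/- libraries (-0.75, adjusted p = 0.223). Like Cd83, Cd40 was most abundant in WT replicate 3 and lower in all Nfkb2-/- libraries. Tnfsf15, encoding TL1A, had a log2 fold change of 0.78 (adjusted p = 0.170).

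Of 23 SLAM, nectin and other co-signalling genes 22 were tested, and Slamf1 was the 1 that changed, with 12 positive and 10 negative log2 fold changes. The most abundant by mean CPM were Cd47, the ligand of SIRPα, with a log2 fold change of -0.46 (adjusted p = 0.337, edgeR), Cd24a with 0.92 (adjusted p = 0.135), Lgals3, which encodes galectin-3, with 0.93 (adjusted p = 0.150), and Slamf7 with -0.36 (adjusted p = 0.456). Lgals3 measured 449, 484 and 255 CPM in WT and 616, 793 and 847 CPM in Nfkb2-/- libraries. Like Lgals9 it was lowest in WT replicate 3 and higher in all Nfkb2-/- libraries, whereas the third galectin gene read here, Lgals1, overlapped between genotypes with 38.7, 48.3 and 41.6 CPM in WT and 46.2, 49.0 and 44.2 CPM in Nfkb2-/- (log2 fold change 0.12).

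The other B7 and butyrophilin genes were scarcely expressed. Of 11 listed, 8 were tested and none changed, and their summed level was 1.66, 0.923 and 2.13 CPM in WT and 11.3, 1.81 and 2.69 CPM in Nfkb2-/- libraries, the highest being Nfkb2-/- replicate 1, the library with the most gene IDs detected. All 8 log2 fold changes were positive. Btnl1, Btn1a1, Btnl2 and Btn2a2 were the most abundant by mean CPM, whose log2 fold changes were 3.02, 1.15, 1.32 and 1.08, with adjusted p of 0.110, 0.600, 0.678 and 0.656 (edgeR). Vtcn1, encoding B7-H4, had 21 counts over the 6 libraries, Btnl6 26 and Vsig4 6, and these were not tested.

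Counter-receptors of these and related ligands were read as well, since dendritic cells carry some of them. Of 11 listed 9 were tested, and Cd160 was the 1 that changed, with 3 positive and 6 negative log2 fold changes. Btla was higher in every Nfkb2-/- library, with 1.16, 3.20 and 0.757 CPM in WT against 7.53, 12.5 and 16.6 CPM. Its log2 fold change of 2.84 missed the threshold in edgeR (adjusted p = 0.0652), while DESeq2 and limma voom called it. Rgmb, a co-receptor that binds PD-L2, was the most abundant by mean CPM, at 73.3, 75.8 and 104 CPM in WT and 50.4, 58.8 and 53.8 CPM in Nfkb2-/- libraries. Its levels did not overlap between genotypes, with a log2 fold change of -0.64 (adjusted p = 0.139, edgeR). Icos measured 5.43, 6.31 and 16.4 CPM in WT and 7.74, 7.22 and 6.42 CPM in Nfkb2-/-, and Cd226, the receptor of nectin-2, 1.42, 5.51 and 0.516 CPM in WT and 7.56, 16.7 and 14.4 CPM in Nfkb2-/- (log2 fold changes -0.39 and 2.38, adjusted p 0.666 and 0.180). Pdcd1, encoding PD-1 itself, ranged from 0.674 to 1.89 CPM over the libraries, and Ctla4 had 27 counts in all and was not tested. The 6 tested T cell markers, of 8 listed, summed to 4.89, 3.78 and 5.61 CPM in WT and 9.39, 3.49 and 2.40 CPM in Nfkb2-/- libraries, mostly from Cd5 in WT, and Cd3e was at most 1.18 CPM in any library. No T cell marker changed, and the part of T cells in the receptor values was not tested.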

How the data were processed

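The authors counted the reads of the 6 BMDC libraries and deposited counts per Ensembl gene, whole numbers without normalization. The labels name HISAT2 and the builds GRCm38 and mm10, and the counting tool, annotation and use of strand are not given in the sources used here. The deposited table of all libraries held the same counts and was not used. Counts on IDs without a name in GENCODE M21 (1.01% to 1.75% of a library) stayed out of library sizes and tests. After the rule in the study's methods, genes reaching 50 counts in the sum of the 6 libraries were kept if named, here in GENCODE M21 since the study's own names were not at hand, 21849 in all.

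Genotypes were compared with edgeR 4.0.16 in R 4.3.3 (TMM, glmQLFit and glmQLFTest, no covariates, common dispersion 0.219, Benjamini-Hochberg adjustment over all genes tested). Standard errors (SE) were obtained as |log2 fold change| over the root of F. DESeq2 1.42.0, the tool of the study, and limma 3.58.1 (voom) were alternatives, beside other scalings, filters and thresholds, a replicate block and each library left out. Ratios used counts plus 1. Exon lengths and positions came from GENCODE M21 on GRCm38. Likeness used log2(CPM + 0.5). Tests were checked on simulated counts. At this depth 1 count corresponded to 0.0187 to 0.0344 CPM, so that counting error weighs most on Cd276 and other genes near 1 CPM.

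The members and all lists were chosen with earlier results of these data known. The lists were 4 of co-signalling genes, 11 of cell type markers, 1 of NF-κB subunit and feedback genes and 1 of regulators of PD-L1. Named are all 10 members, Nfkb2, for each list up to 4 of the most abundant tested genes by mean CPM and up to 4 that changed, and for each member of at least 5 CPM the 3 genes nearest in profile, of which 1 is not reported here. Any other gene named was chosen after its values were seen, as were Btla, Pdcd1, Ctla4 and Cd3e. The published ChIP-seq and single-cell datasets that the study drew on, and its own protein measurements, were not analysed here. The study reported equivalent surface CD80 and CD86 on intestinal dendritic cells with and without Nfkb2 deletion in CD11c+ cells. That was protein on other cells from a different knockout, and it was not compared with the mRNA levels here.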

Additional observations from a re-analysis of the deposited data

How the results depend on the processing

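Direction was the same under all alternatives for Cd86, Cd83, Cd274, Pdcd1lg2, Vsir and Lgals9 and for both ratios, while for Cd80, Icosl, Cd276 and Havcr2, with values close to 0, the sign differed between settings. The 248 genes that changed became 1878 with DESeq2, 488 with limma voom, 397 with filterByExpr, 1625 with no filter, 459 with at least 10 counts in every library, 808 at an adjusted p under 0.1, and 0 to 1248 with a library left out. Counts of 0 came without WT replicate 1 (2325 genes with an unadjusted p under 0.05) and without Nfkb2-/- replicate 1, 2 or 3 (4088, 2580 and 2726), and 1248 came without WT replicate 2. Of the 10 ligand genes 2 were called with DESeq2 and 2 with no filter, Cd83 (-1.14 and -1.19) and Lgals9 (1.06 and 0.98), and 0 to 1 with a library left out, Cd83 without WT replicate 2 and Vsir without WT replicate 3. The 3 co-signalling genes called became 12 with DESeq2, 11 with no filter and 0 to 9 with a library left out, 9 without WT replicate 2, 5 without WT replicate 3, and 0 without WT replicate 1 or any Nfkb2-/- library. Leaving out both WT replicate 3 and Nfkb2-/- replicate 1, an alternative chosen after seeing the data, gave 908 genes, 2 ligand genes (Cd86, 0.86, and Vsir, -1.21) and 8 co-signalling genes, with values of 0.33 for Cd80, -0.68 for Cd83 and -1.94 for Cd276 that were not called. Reversed signs were -0.0020 with DESeq2 and with its size factors and -0.046 with no filter for Cd80, 0.033 with total counts alone and 0.054 without both libraries for Icosl, 0.18 with total counts and 0.0014 with filterByExpr for Cd276, and 0.011 with limma voom, 0.059 with total counts and 0.0035 with at least 10 counts for Havcr2. With a library left out, log2 fold changes ran from -0.19 to 0.26 for Cd80, 0.39 to 0.86 for Cd86, -1.39 to -0.71 for Cd83, -0.17 to 0.11 for Icosl, -1.72 to 0.43 for Cd276, -1.23 to -0.38 for Vsir and -0.24 to 0.19 for Havcr2. The replicate block left 0 genes and 0 co-signalling genes called (3331 genes with an unadjusted p under 0.05) and reversed Havcr2 (0.043). Whether same-numbered libraries were prepared together is not given in the sources used here. Deviations of same-numbered libraries correlated at 0.1, 0.06 and -0.01, and those of differently numbered libraries at -0.108 to 0.0885. With ranges this alike, the correlations cannot decide whether the samples were paired. Total counts alone shifted the median log2 fold change of all genes by 0.09, and no filter by 0.53. Cd276 had no value under at least 10 counts in every library. The causes of these differences were not tested. Counting error weighs most on Cd276 and other genes near 1 CPM, although the spread of Cd276 rested mainly on Nfkb2-/- replicate 1.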

Other observations

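Further gene groups bear on the same ligands. Of 11 genes that act on PD-L1, through interferon-gamma and STAT signalling or by holding the protein at the surface, 1 fell and none rose, where 0.682% of all genes fell. Irf1, the interferon-induced factor known to drive Cd274, measured 24.4, 19.4 and 29.9 CPM in WT and 10.7, 10.8 and 11.2 CPM in Nfkb2-/- libraries, and fell by 1.17 on the log2 scale (adjusted p = 0.0461, edgeR), and by 1.16 without Nfkb2-/- replicate 1 (adjusted p = 0.0945) and 1.0 without WT replicate 3 (adjusted p = 0.0510). Cd274 itself was lower in all Nfkb2-/- libraries and did not pass the test. The part of these regulators in the values of Cd274 was not tested. The median of the list was -0.28, against 0.08 over all genes, with 10 of 11 values negative and 6 lower without overlap, as 12% of all genes were. Jak2, Cmtm6, Jak1 and Stat3, the most abundant by mean CPM, had log2 fold changes of -0.09, -0.28, -0.12 and -0.72 with adjusted p of 0.883, 0.449, 0.766 and 0.263 (edgeR). Cmtm6, which protects PD-L1 from degradation, measured 353, 357 and 421 CPM in WT and 264, 324 and 344 CPM in Nfkb2-/- libraries.

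Of a list of NF-κB subunit and feedback genes, 9 were tested beside Nfkb2, the deleted gene. None passed edgeR's test (1.14% of all genes), while 5 had an unadjusted p under 0.05 (17.1% of all genes). Relb, encoding the partner of p52, was on this list, with a log2 fold change of -0.67 (adjusted p = 0.290, edgeR). The median log2 fold change of the 9 genes was -0.55, against 0.08 over all genes, and 4 were lower without overlap, as 12% of all genes were. Rel, the most abundant by mean CPM, measured 2090, 1720 and 2394 CPM in WT and 1466, 1426 and 1345 CPM in Nfkb2-/- libraries (log2 fold change -0.55, adjusted p = 0.203, edgeR). Nfkbia, which encodes IκBα, measured 279, 265 and 501 CPM in WT and 172, 175 and 172 CPM in Nfkb2-/- (-1.01, adjusted p = 0.117). Nfkb1 and Cyld had log2 fold changes of 0.07 and -0.06 (adjusted p 0.899 and 0.904).

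Markers of further cell types were summed in the same way. B cell markers (4 of 6 tested) came to 1.64, 1.23 and 1.07 CPM in WT and 7.12, 0.857 and 0.767 CPM in Nfkb2-/- libraries, with Nfkb2-/- replicate 1 the highest. Granulocyte markers (8 of 9 tested, S100a8 the most abundant) summed to between 84.1 and 231 CPM, and stromal markers (5 of 6 tested, Col1a2 the most abundant) to between 1.17 and 68.3 CPM, both lowest in WT replicate 3. Natural killer cell markers (3 of 5 tested) summed to between 36.9 and 241 CPM, nearly all from Klrk1, and plasmacytoid dendritic cell markers (4 of 5 tested, Spib the most abundant) to between 32.9 and 43.8 CPM. Of the mast cell and basophil markers (5 of 7 tested, Kit the most abundant), Cpa3, a mast cell carboxypeptidase, fell by 1.84 on the log2 scale (adjusted p = 0.0413, edgeR), and by 1.73 without Nfkb2-/- replicate 1 (adjusted p = 0.0931). The list had 2 positive and 3 negative log2 fold changes, among them 1.47 for Gata2, a transcription factor higher in every Nfkb2-/- library (adjusted p = 0.119, edgeR), and 0.18 for Kit. Of the erythroid markers 1 of 6, Alas2, had enough counts to be tested. None of the markers in this paragraph other than Cpa3 changed. Their part in the levels of the ligands was not tested.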
